A study of Homo sapiens with 6 samples.

Results

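RAB proteins are small GTPases that mark membranes and steer the vesicles that bud from them. All genes with a symbol of the form RAB, a number and at most a letter and a further digit were taken from the value table, which gave 62 of the 17687 named genes measured. Each of the 62 had 1 probe set, so the choice of the brightest probe set per gene left nothing out. RNA came from A431, an established human cell line from an epidermoid carcinoma, which carries unusually many receptors (EGFR) for epidermal growth factor (EGF). All cells were grown with serum and then starved for 24 h. The control group received no treatment, the EGF group 100 ng/ml EGF, and the EGF plus gefitinib group EGF at that dose together with gefitinib, a blocker of the EGFR kinase, at 10 µM. Harvest was after 30 min, and each group held 2 arrays. The series is 1 cell line, the labels name no vehicle for the control, and they do not give the time of gefitinib relative to EGF. The labels number biological replicates but do not say that these were separate cultures, so the p-values cover no more than the variation among these arrays, and that may be technical.

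A RAB protein bound to GTP sits on its membrane and recruits effectors, and it is released after its GTP is cleaved. Exchange factors load the GTP, GTPase activating proteins speed its cleavage, and prenylation with a set of carrier proteins delivers the protein to membranes. After EGF binds, EGFR enters RAB5 early endosomes, from which it returns to the surface through RAB4, RAB11, RAB25 and RAB35 compartments or goes on to RAB7 late endosomes and lysosomes. Other RABs act between the endoplasmic reticulum (ER) and the Golgi or bring secretory vesicles to the surface. The arrays measured RNA and not the proteins or their GTP-bound state, and in a whole culture fewer cells with a transcript and less of it per cell cannot be told apart.

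Values are deposited log2 values. A probe set was taken as detected on an array where it exceeded the level below which 95% of the 612 negative controls lay, a limit between 7.14 and 7.65, and 38.4% to 42.1% of transcript probe sets did so. Of the 62 RAB genes 34 were above the limit on all 6 arrays, 8 on some and 20 on none. Levels of different genes are not compared here, since probe sets differ in their response. The EGF targets DUSP6 and FOSL1 were higher in both EGF arrays than in both controls and lower in both EGF plus gefitinib arrays than in both EGF arrays, in the direction the labels imply. With EGF plus gefitinib FOSL1 differed from control by 0.02 ± 0.24, while DUSP6 remained 2.61 ± 0.20 above it (adjusted p = 0.00618). TXNIP and BCL6, also chosen to check the labels, were lower with EGF than in control. The fitted differences were −4.45 ± 0.18 for TXNIP, at background with EGF, and −4.97 ± 0.26 for BCL6. Both genes were higher in both EGF plus gefitinib arrays than in both EGF arrays. All 7 measured keratinocyte and epithelial markers were above the limit on every array, with the keratin KRT5 at 16.74 to 16.86, and the log2 of their summed level was 17.61 to 17.62 in control, 18.02 to 18.04 with EGF and 17.73 to 17.85 with EGF plus gefitinib. None of the 5 melanocyte or 5 neuroendocrine markers was, including TYR, MLANA, CHGA and SYP. Of 5 leukocyte markers only CD68 was above the limit on any array (12.26 to 13.08), and PTPRC was not. Of 5 fibroblast markers LUM was above the limit on all arrays and COL1A2 on the 2 control arrays only, while COL1A1, DCN and PDGFRB were at background on all. The log2 of the summed fibroblast markers was 9.98 to 10.08 in control, 8.88 to 9.23 with EGF and 9.06 to 9.50 with EGF plus gefitinib. That of the endothelial markers was 7.58 to 7.93, 6.55 to 6.83 and 8.08 to 8.20, with PECAM1 and VWF at background on all arrays, and of the 5 markers only CDH5 was above the limit on any array. The part of the epithelial, fibroblast and endothelial lists in the changes below was not tested.

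The RAB genes were sorted by the compartment they are best known for, into 7 of the early endosome, 8 of recycling endosomes, 12 of secretory vesicles, 17 of the ER and Golgi, 9 of late endosomes and lysosomes and 9 others. Many RABs act at several places, so each gene stands only under 1 of them. RAB4B, a recycling member, was not analysed here. In the early endosome group 6 of 7 genes were above the limit on all arrays, in the recycling group 6 of 8 and in the secretory group 6 of 12. The neuronal and endocrine vesicle genes RAB3A, RAB3B and RAB3C and the granule gene RAB37 were at background on every array, as was the early endosome and phagosome gene RAB20.

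**Figure D1:**
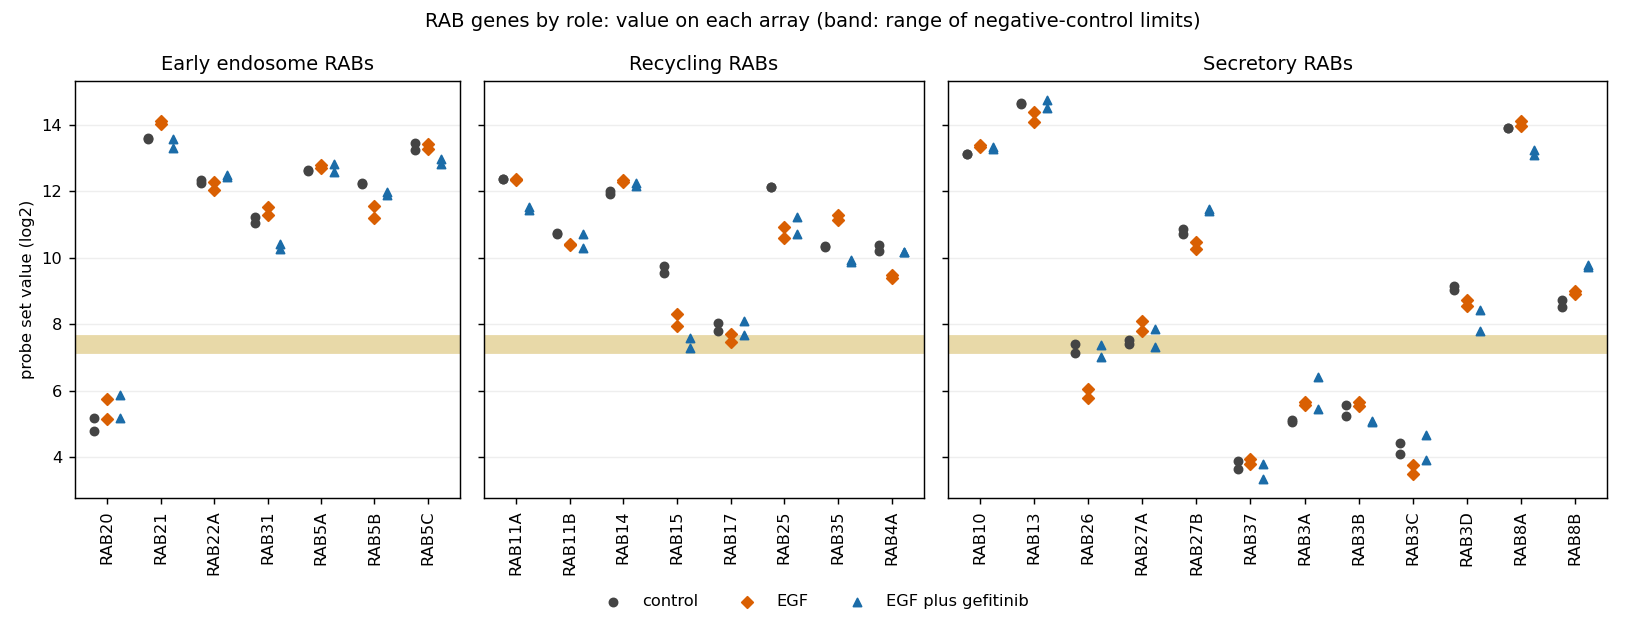
Deposited log2 value (vertical axis) of each of the 27 early endosome, recycling and secretory RAB genes on each array. Circles are the 2 control arrays, diamonds the 2 EGF arrays and triangles the 2 EGF plus gefitinib arrays, and the band spans the negative-control limits of 7.14 to 7.65. RAB15 falls from 9.53 and 9.74 in control to 7.27 and 7.59 with EGF plus gefitinib, while the RAB5A arrays lie together between 12.57 and 12.82.

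The first comparison asked which RAB transcripts changed when starved cells received EGF. With EGF, 7 RAB genes fell and 2 rose (limma, adjusted p under 0.05). The 4 recycling genes among them were RAB15, RAB25 and RAB4A, which fell, and RAB35, which rose. RAB5B of the early endosome, RAB26 of secretory granules, RAB33A of the Golgi (at background on all arrays) and RAB40B also fell, and RAB38 of lysosome-related organelles rose. The 7 lower genes are 11.3% of the RAB genes, against 5.30% of all 21448 probe sets tested, and the 2 higher are 3.23%, against 6.61%. Of the 41 RAB genes above the limit in either group 6 were lower (14.6%) and 2 higher (4.88%), against 9.88% and 13.3% of the 9423 probe sets above it. Being above the limit in 1 group favours genes that differ, so these shares are a description only. The median difference of the 62 genes was 0.03 on the log2 scale (−0.03 over all probe sets). With 2 arrays a group, a lack of overlap was common. Both EGF arrays lay above both control arrays for 5781 of all 21448 probe sets and below both for 6118. Among the 62 RAB genes these counts were 24 and 22.

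RAB15, which slows traffic through sorting and recycling endosomes, had the largest fall. It measured 9.53 and 9.74 in control and 7.93 and 8.30 with EGF. The control arrays lay above both EGF arrays by more than the spread within either group, and the difference was −1.52 ± 0.22 (log2 difference ± standard error of the fit, n = 2 arrays a group), a 2.86-fold fall (adjusted p = 0.00666). RAB25, an epithelial relative of RAB11 that returns integrins and receptors to the surface, measured 12.14 and 12.14 in control and 10.93 and 10.61 with EGF. It fell by 1.37 ± 0.23, or 2.59-fold (adjusted p = 0.0124), and the groups did not overlap. RAB4A, which drives the fast return from early endosomes, went from 10.20 and 10.39 to 9.48 and 9.40, a difference of −0.86 ± 0.17 (1.81-fold, adjusted p = 0.0223). RAB35, which acts in fast recycling and at the plasma membrane, moved the other way, from 10.34 and 10.32 to 11.29 and 11.13, a rise of 0.88 ± 0.17 (1.84-fold, adjusted p = 0.0192). The remaining recycling genes were not called. RAB11A, the main RAB of the slow recycling compartment, measured 12.39 and 12.36 in control and 12.33 and 12.36 with EGF, a difference of −0.03 ± 0.17 (95% interval −0.42 to 0.37). RAB11B differed by −0.33 ± 0.20 (adjusted p = 0.362), RAB14 by 0.35 ± 0.17 and RAB17, a RAB of polarised epithelia, by −0.33 ± 0.22.

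Of the early endosome genes only RAB5B was called. RAB5 proteins govern the fusion of incoming vesicles with early endosomes, and RAB5B measured 12.24 and 12.27 in control and 11.56 and 11.20 with EGF, a 1.82-fold fall (−0.87 ± 0.19, adjusted p = 0.0299). Its relatives were not called: RAB5A measured 12.66 and 12.61 and then 12.80 and 12.69 (0.11 ± 0.18, 95% interval −0.32 to 0.54), and RAB5C 13.45 and 13.24 and then 13.43 and 13.27 (0.01 ± 0.19, 95% interval −0.43 to 0.44). RAB21, which guides integrins through early endosomes, was 0.49 ± 0.18 apart (adjusted p = 0.134), with both EGF arrays above both control arrays.

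Among secretory genes RAB26, found on secretory granules, was the only member called, and it was dim. Its arrays read 7.39 and 7.13 in control, of which the first alone was above its limit, and 5.78 and 6.04 with EGF, both at background. The fit gave −1.35 ± 0.21 (adjusted p = 0.00971), and no fold is given since the control mean lay under the limit of the EGF arrays. RAB8A, which carries cargo to the surface and to cilia, differed by 0.13 ± 0.18, RAB10, which serves basolateral delivery and insertion of glucose transporters, by 0.23 ± 0.17 (95% interval −0.16 to 0.63), RAB27A by 0.49 ± 0.24 and RAB27B, which like RAB27A docks granules and exosomes, by −0.42 ± 0.18 (adjusted p = 0.187), and none was called. In the other groups RAB38, which sends enzymes to melanosomes and related organelles, rose from 10.02 and 10.09 to 10.80 and 10.66 (0.67 ± 0.17, 1.6-fold, adjusted p = 0.0467). RAB40B, whose product joins a ubiquitin ligase complex, fell from 8.63 and 8.43 to 7.86 and 7.41 (−0.89 ± 0.23, 1.85-fold, adjusted p = 0.0487). RAB33A, a Golgi and autophagy RAB, was called at −0.84 ± 0.17 (adjusted p = 0.0232) but was at background on all arrays. RAB7A, the RAB of late endosomes, measured 16.69 and 16.67 in control and 16.86 and 16.74 with EGF (0.13 ± 0.17, 95% interval −0.27 to 0.52).

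These counts rested on all arrays. With 1 array left out, the lower calls numbered 1 without control 1 (RAB15), 2 without control 2 or without EGF 2 (RAB15 and RAB26) and 1 without EGF 1 (RAB25), and neither RAB35 nor RAB38 was called in those 4 fits; the 1 higher call without EGF 2 was RAB30, at background on all arrays. A fit with a trended and robust prior called 9 lower and 5 higher, and one restricted to probe sets above the limit on both arrays of a group called 8 lower and 6 higher.

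The DNA before the start of the RAB genes was read from the RefSeq promoter table (GRCh38.p14), which matched 49 of the 62 genes. RAB15, RAB26, RAB33A and RAB38, all called with EGF, were not among them and were not searched. The 250 bases before each start were searched on both strands for 5 motifs. The AP-1 site TGANTCA stood in 2 of the 49 windows (4.08%, against 6.60% of all 27305 windows in the table), the FOXO site TGTTTAC in 0 (2.98%), the E-box CACGTG in 5 (10.2%, against 6.49%), the ETS site CCGGAAG in 7 (14.3%, against 8.82%) and TATAAA in 4 (8.16%, against 11.1%). These are matches of letters and do not show binding. The windows of 4 genes called with EGF, some with and some without a motif, are shown 5′ to 3′ on the gene's strand, with capitals for a match. That of RAB40B, which fell with EGF and holds none of the 5 motifs, is not shown. RAB4A (chr1:229270861-229271110, plus strand), which fell, holds an E-box and an ETS site next to each other, starting 102 and 96 bases before the start. RAB5B (chr12:55973699-55973948, plus strand), which fell too, holds an AP-1 site that starts 210 bases before it. Neither RAB25 (chr1:156060910-156061159, plus strand), which fell, nor RAB35 (chr12:120116754-120117003, minus strand), which rose, holds any of the 5 motifs.
RAB4A: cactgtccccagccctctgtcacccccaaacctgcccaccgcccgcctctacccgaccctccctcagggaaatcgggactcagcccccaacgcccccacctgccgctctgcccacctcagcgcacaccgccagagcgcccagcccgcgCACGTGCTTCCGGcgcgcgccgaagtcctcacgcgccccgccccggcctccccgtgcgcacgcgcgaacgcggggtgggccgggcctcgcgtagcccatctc
RAB5B: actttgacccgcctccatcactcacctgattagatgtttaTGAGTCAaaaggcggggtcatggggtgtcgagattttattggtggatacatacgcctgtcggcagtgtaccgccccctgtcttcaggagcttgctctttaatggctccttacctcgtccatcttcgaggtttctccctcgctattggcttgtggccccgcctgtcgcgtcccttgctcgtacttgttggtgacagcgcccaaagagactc
RAB25: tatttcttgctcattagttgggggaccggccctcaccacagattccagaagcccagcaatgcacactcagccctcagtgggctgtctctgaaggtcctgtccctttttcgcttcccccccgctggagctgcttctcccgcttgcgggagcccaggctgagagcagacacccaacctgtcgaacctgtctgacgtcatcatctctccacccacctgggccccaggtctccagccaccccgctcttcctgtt
RAB35: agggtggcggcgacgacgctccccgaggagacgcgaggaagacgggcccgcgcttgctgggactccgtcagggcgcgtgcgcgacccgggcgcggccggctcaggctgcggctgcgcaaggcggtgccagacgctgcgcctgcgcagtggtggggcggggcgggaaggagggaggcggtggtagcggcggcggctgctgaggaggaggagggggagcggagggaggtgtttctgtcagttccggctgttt

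The second comparison asked what differed when gefitinib was present with EGF. Of the 62 genes 7 were higher and 8 lower with EGF plus gefitinib than with EGF alone. RAB26, RAB27B and RAB8B of the secretory group rose, as did RAB4A, RAB33B, RAB32 and RAB40B. RAB35 and RAB11A of the recycling group fell, with RAB31 and RAB21 of the early endosome, RAB8A of the secretory group and RAB19 (at background on all arrays), RAB36 and RAB43 of the ER and Golgi group. The shares of 11.3% higher and 12.9% lower stand beside 8.86% and 9.81% of all probe sets. Of the 42 RAB genes above the limit in either group 7 were higher (16.7%) and 7 lower (16.7%), against 15.7% and 19.9% of the 9381 probe sets above it. This comparison shares the EGF arrays with the first one, so a change in those arrays enters both with opposite signs. Both EGF plus gefitinib arrays lay above both EGF arrays for 6611 of all 21448 probe sets and below both for 5631. Among the 62 RAB genes these counts were 18 and 21.

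RAB35 had the largest fall among the detected genes. Its arrays read 11.29 and 11.13 with EGF and 9.92 and 9.87 with EGF plus gefitinib, so the groups did not overlap, and the difference was −1.31 ± 0.17 (2.49-fold, adjusted p = 0.00279). RAB11A went from 12.33 and 12.36 to 11.44 and 11.52, a 1.82-fold fall (−0.87 ± 0.17, adjusted p = 0.0122). RAB4A rose from 9.48 and 9.40 to 10.18 and 10.18 (0.74 ± 0.17, 1.67-fold, adjusted p = 0.0253). RAB15 read 7.27 and 7.59 with EGF plus gefitinib, and the first of these arrays was below its limit. Both were below both EGF arrays, but the difference of −0.69 ± 0.22 (95% interval −1.20 to −0.18) was not called (adjusted p = 0.069). RAB25 read 11.24 and 10.71, which overlapped the EGF arrays, and differed by 0.21 ± 0.23 (95% interval −0.34 to 0.76). RAB11B differed by 0.12 ± 0.20 (adjusted p = 0.748).

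In the early endosome group RAB31, which carries receptors between the trans-Golgi and endosomes, fell from 11.29 and 11.54 to 10.41 and 10.28 (−1.07 ± 0.19, 2.1-fold, adjusted p = 0.00884). RAB21 fell from 14.04 and 14.13 to 13.31 and 13.57 (−0.65 ± 0.18, 1.56-fold, adjusted p = 0.0476). RAB5B read 11.99 and 11.89, above both EGF arrays, and the difference of 0.55 ± 0.19 was not called (adjusted p = 0.0932). RAB5A differed by −0.05 ± 0.18 (95% interval −0.48 to 0.38) and RAB5C by −0.45 ± 0.19 (adjusted p = 0.144).

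The secretory group held calls in both directions. RAB27B rose from 10.27 and 10.46 to 11.48 and 11.41, a 2.12-fold difference (1.08 ± 0.18, adjusted p = 0.00693), and RAB27A, its close relative, differed by −0.36 ± 0.24 (adjusted p = 0.356) with overlapping arrays. RAB8A and RAB8B, close relatives as well, moved apart: RAB8A fell from 13.95 and 14.11 to 13.26 and 13.11 (−0.85 ± 0.18, 1.8-fold, adjusted p = 0.0159), and RAB8B rose from 8.99 and 8.92 to 9.71 and 9.80 (0.80 ± 0.18, 1.75-fold, adjusted p = 0.0207). The difference between these relatives was not tested. RAB26 read 7.01 and 7.37, the second above its limit, and the fit gave 1.27 ± 0.21 (adjusted p = 0.00722) with no fold. RAB10 differed by −0.06 ± 0.17 (95% interval −0.45 to 0.34).

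Among the remaining groups RAB36, a Golgi RAB linked to the position of lysosomes, fell from 8.75 and 8.80 to 7.63 and 7.92 (−1.0 ± 0.18, adjusted p = 0.0099). The RAB36 value of 7.63 was below the limit of its array, 7.65. RAB43, a Golgi RAB, fell from 8.88 and 8.88 to 7.83 and 7.96 (−0.99 ± 0.20, adjusted p = 0.0159). RAB43 shares exons with the ISY1-RAB43 readthrough transcript, so its signal may hold both. RAB33B, which links the Golgi to autophagosome formation, rose from 8.07 and 7.60 to 8.75 and 8.82 (0.95 ± 0.24, 1.93-fold, adjusted p = 0.0341), and RAB40B from 7.86 and 7.41 to 8.51 and 8.86 (1.04 ± 0.23, 2.06-fold, adjusted p = 0.0202). RAB32, which acts with RAB38 at lysosome-related organelles and on mitochondria, was at background with EGF (7.39 and 7.12) and above the limit with EGF plus gefitinib (8.02 and 7.91), at least 1.51-fold higher (fitted 0.71 ± 0.18, adjusted p = 0.0358). RAB19 had the most negative fitted difference, −1.80 ± 0.20 (adjusted p = 0.00156), but was at background on all arrays. RAB7A differed by −0.37 ± 0.17 (95% interval −0.76 to 0.03), and RAB38 by −0.60 ± 0.17 (adjusted p = 0.0521).

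Leaving out an EGF array left 1 higher and 3 lower calls without EGF 1 (RAB40B; RAB19, RAB31 and RAB35) and 2 and 2 without EGF 2 (RAB26 and RAB27B; RAB19 and RAB35). Higher calls numbered 3 without EGF plus gefitinib 1 (RAB26, RAB27B and RAB40B) and 2 without EGF plus gefitinib 2 (RAB26 and RAB27B), and lower calls numbered 14 with the filter on dim probe sets and 15 with the trended and robust prior, RAB15 among them in both.

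**Figure D2:**
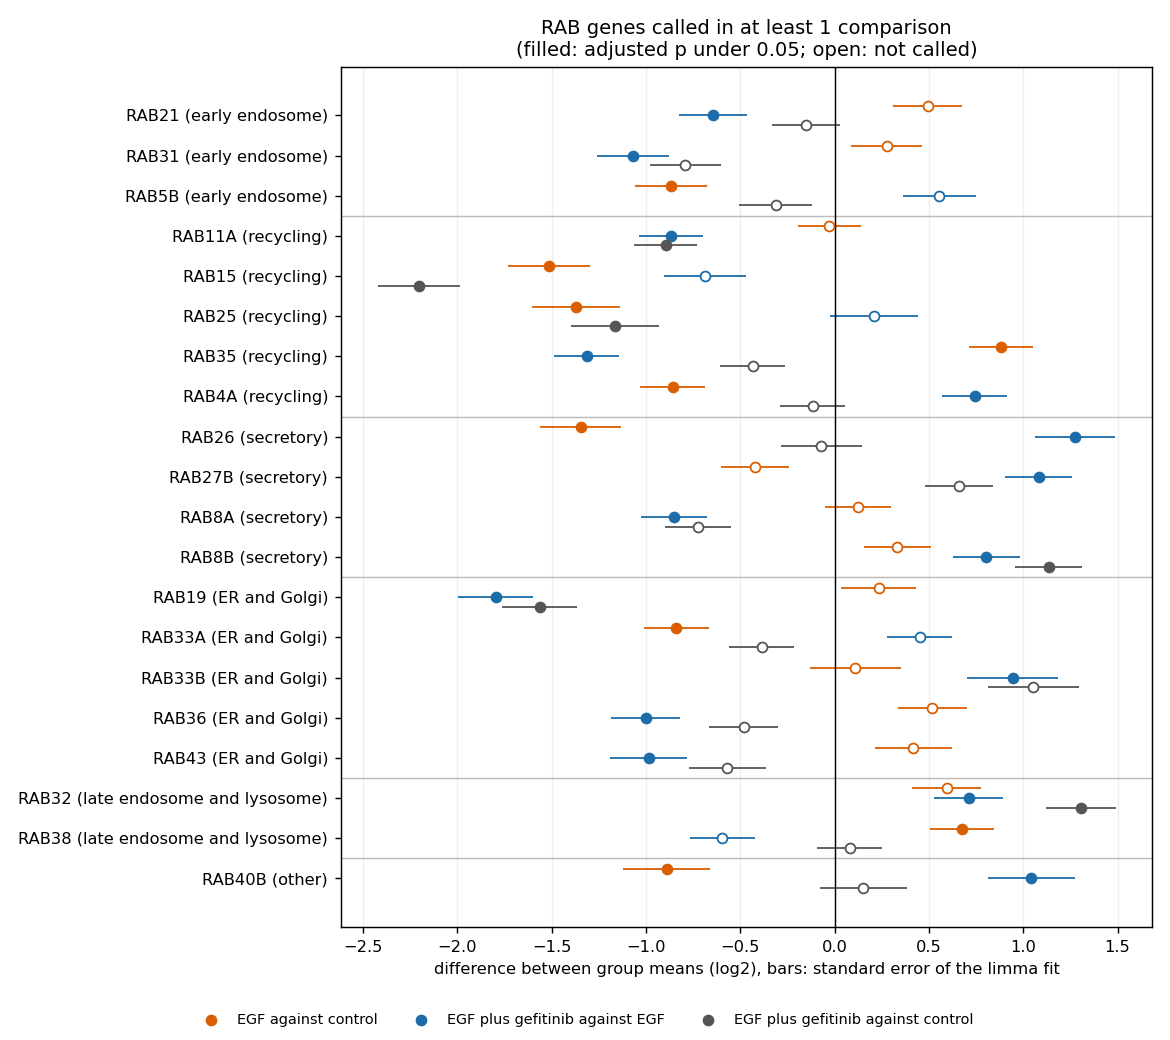
Log2 difference between group means (horizontal axis) for the 20 RAB genes called in at least 1 comparison, ordered by role, with bars of 1 standard error of the limma fit. Orange is EGF against control, blue EGF plus gefitinib against EGF and grey EGF plus gefitinib against control, with filled points for calls at an adjusted p under 0.05. RAB15 lies at −1.52 and −2.21 against control, and the orange and blue points of RAB35, RAB4A, RAB26 and RAB40B lie on opposite sides of 0.

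The third comparison set EGF plus gefitinib against the untreated control, and so asked which RAB genes differed from starved cells with both agents present. No group received gefitinib alone, so an effect of gefitinib without EGF cannot be told apart from one that needs EGF. Here 2 RAB genes were higher (3.23%, against 2.19% of all probe sets) and 4 lower (6.45%, against 1.70%). Of the 42 RAB genes above the limit in either group 2 were higher (4.76%) and 3 lower (7.14%), against 4.19% and 3.35% of the 9348 probe sets above it. RAB15, RAB25 and RAB11A, all of the recycling group, fell, as did RAB19, and RAB8B and RAB32 rose. The control arrays are shared with the first comparison and the EGF plus gefitinib arrays with the second.

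RAB15 had the largest difference in this comparison, 9.53 and 9.74 in control against 7.27 and 7.59 (−2.21 ± 0.22, 4.61-fold, adjusted p = 0.0091). Since its mean with EGF plus gefitinib lay between the limits of those arrays (7.65 and 7.29), the size of this fold is uncertain. RAB25 fell from 12.14 and 12.14 to 11.24 and 10.71 (−1.17 ± 0.23, 2.24-fold, adjusted p = 0.0438), and RAB11A from 12.39 and 12.36 to 11.44 and 11.52 (−0.90 ± 0.17, 1.86-fold, adjusted p = 0.0376). RAB8B rose from 8.51 and 8.73 to 9.71 and 9.80 (1.14 ± 0.18, 2.2-fold, adjusted p = 0.0243). RAB32 was at background in control (6.69 and 6.64) and at least 1.6-fold higher with EGF plus gefitinib (fitted 1.31 ± 0.18, adjusted p = 0.0177). RAB19 was called at −1.56 ± 0.20 (adjusted p = 0.0155), at background throughout.

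Several genes called in the other comparisons stood near the control here. RAB4A differed from it by −0.12 ± 0.17 (95% interval −0.53 to 0.29), RAB26 by −0.07 ± 0.21 (95% interval −0.57 to 0.43), RAB38 by 0.08 ± 0.17 (95% interval −0.32 to 0.48), RAB40B by 0.15 ± 0.23 (95% interval −0.39 to 0.69) and RAB21 by −0.15 ± 0.18 (95% interval −0.58 to 0.27). RAB35 differed by −0.43 ± 0.17 (adjusted p = 0.208) and RAB5B by −0.31 ± 0.19 (adjusted p = 0.408), and neither was called. RAB7B, a late endosome RAB, was just short of a call at −0.98 ± 0.21 (adjusted p = 0.0504), with 11.12 and 11.20 in control and 9.97 and 10.39 with EGF plus gefitinib. The other genes named throughout differed by 0.06 ± 0.18 (RAB5A), −0.45 ± 0.19 (RAB5C), −0.24 ± 0.17 (RAB7A), −0.21 ± 0.20 (RAB11B), −0.72 ± 0.18 (RAB8A), 0.18 ± 0.17 (RAB10), 0.13 ± 0.24 (RAB27A) and 0.66 ± 0.18 (RAB27B), none of them called.

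No RAB gene was called in this comparison without control 1, without control 2 or without EGF plus gefitinib 2, fits in which limma called 0, 8 and 0 of all probe sets (15, 15 and 19 RAB genes had an unadjusted p under 0.05). Without EGF plus gefitinib 1 only RAB15 was called. Without either EGF array, which enters only through the shared spread, RAB15, RAB19 and RAB32 were called, and with the trended and robust prior 12 genes were lower and 5 higher, against 11 and 4 with the filter on dim probe sets.

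Set side by side by role, the counts of calls were small. With EGF, 1 of 7 early endosome genes was lower and 0 higher, of 8 recycling genes 3 were lower and 1 higher, and of 12 secretory genes 1 was lower and 0 higher. The lower shares were 14.3%, 37.5% and 8.33%, against 5.30% of all probe sets, of which 6.61% were higher, and at these sizes a share moves by 8.33% or more with 1 gene. The median differences were 0.11, −0.33 and 0.11. With gefitinib against EGF alone, the early endosome group had 2 lower and 0 higher (median −0.05), the recycling group 2 lower and 1 higher (median 0.01) and the secretory group 1 lower and 3 higher (median 0.13), beside 9.81% lower and 8.86% higher over all probe sets. With both agents against control limma called 0 early endosome genes (median −0.15). Of these 7 genes 2 had an unadjusted limma p under 0.05, beside 4457 of all 21448 probe sets. In the same comparison 3 recycling genes were lower and 0 higher (median −0.32), and 1 secretory gene was higher and 0 lower (median 0.01). Over all probe sets 1.70% were lower and 2.19% higher. The ER and Golgi group of 17 had 1 lower and 0 higher, 3 lower and 1 higher, and 1 lower and 0 higher in the 3 comparisons. The late endosome and lysosome group of 9 had 1 higher in each and 0 lower. The groups are small and were compared only by these counts, with no test between roles.

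**Figure D3:**
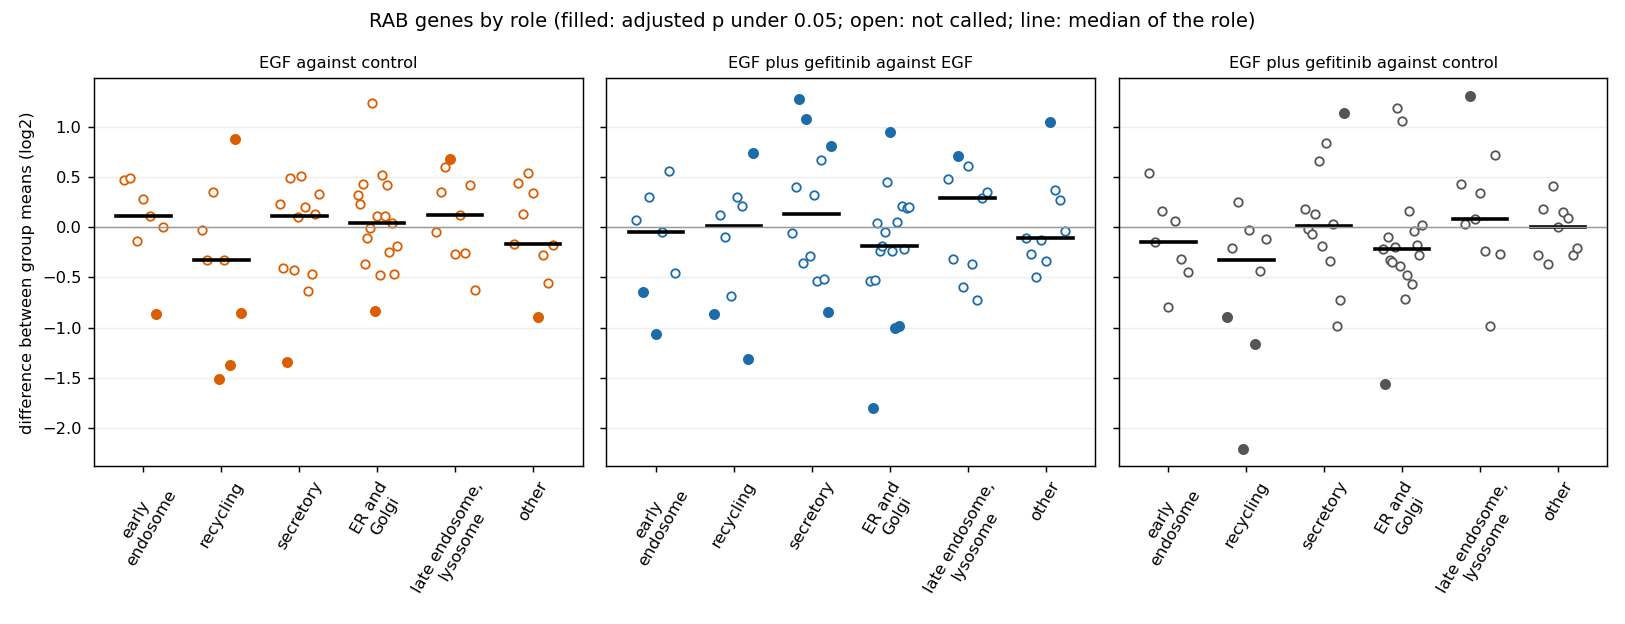
Log2 difference between group means (vertical axis) of all 62 RAB genes by role (horizontal axis), 1 panel for each comparison, with filled points for calls at an adjusted p under 0.05 and a line at each role's median. With EGF the recycling median is −0.33, and the early endosome and secretory medians are both 0.11.

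The genes that load, unload and read RAB proteins were taken from 4 lists with 114 measured members. Unlike the RAB calls, their calls are not given here for the fits that leave out an array, so how firm they are is not shown. With EGF, 6 of them rose and 10 fell (5.26% and 8.77%, against 6.61% and 5.30% of all probe sets). With gefitinib against EGF alone 19 rose and 9 fell (16.7% and 7.89%, against 8.86% and 9.81%). With both agents against control 2 rose and 0 fell (1.75% and 0%, against 2.19% and 1.70%). Of 34 exchange factors 2 rose (5.88%) and 4 fell (11.8%) with EGF. ANKRD27, an exchange factor of RAB21 that also binds RAB32 and RAB38, rose with EGF from 8.99 and 8.95 to 9.86 and 9.85 (0.89 ± 0.17, adjusted p = 0.017) and fell to 8.66 and 8.59 with gefitinib (−1.23 ± 0.17, adjusted p = 0.00328). RABGEF1, which activates RAB5, rose with EGF (0.84 ± 0.17, adjusted p = 0.0224), and RIN2, another RAB5 exchange factor, fell (−1.0 ± 0.20, adjusted p = 0.0205). RIN2 was higher again with gefitinib against EGF alone (1.52 ± 0.20, adjusted p = 0.00277), at 9.52 and 9.80 in control, 8.57 and 8.75 with EGF and 10.06 and 10.29 with both agents. HPS4, part of the exchange factor of RAB32 and RAB38, fell with EGF (−0.92 ± 0.20, adjusted p = 0.0272) and was 1.62 ± 0.20 higher with gefitinib (adjusted p = 0.00224). SBF2 was called only against EGF alone (1.27 ± 0.22, adjusted p = 0.00821). In that comparison 5 exchange factors rose (14.7%) and 4 fell (11.8%). With both agents against control limma called 0 of 34, and 7 had an unadjusted p under 0.05, beside 4457 of all 21448 probe sets.

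Of 32 GTPase activating proteins 3 rose (9.38%) and 2 fell (6.25%) with EGF, shares near the 6.61% and 5.30% over all probe sets. With gefitinib against EGF alone 5 rose (15.6%) and 1 fell, against 8.86% and 9.81% over all. TBC1D2, which acts on RAB7, read 10.51 and 10.35 in control, 11.47 and 11.25 with EGF and 12.07 and 12.11 with both agents, and it was higher in all 3 comparisons (0.93 ± 0.18, 0.73 ± 0.18 and 1.66 ± 0.18). TBC1D15, another RAB7 regulator, was higher with both agents than with EGF (1.55 ± 0.22, adjusted p = 0.00388) and than in control (1.14 ± 0.22, adjusted p = 0.0404). RABGAP1L fell with EGF (−1.08 ± 0.20, adjusted p = 0.0153) and was higher with gefitinib (1.65 ± 0.20, adjusted p = 0.00199). TBC1D30 was called in the first 2 comparisons (1.60 ± 0.35 and −2.55 ± 0.35) but was at background on all arrays, and TBC1D9 was above the limit only on EGF plus gefitinib array 2 of the 6 (−1.09 ± 0.21 and 1.68 ± 0.21).

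Of 43 effectors 1 rose (2.33%) and 4 fell (9.30%) with EGF, against 6.61% and 5.30% of all probe sets. With gefitinib against EGF alone 9 rose (20.9%) and 3 fell (6.98%), against 8.86% and 9.81%. Against control limma called 0 of 43, and 14 had an unadjusted p under 0.05, beside 4457 of all 21448 probe sets. EXPH5, a RAB27 effector of skin, read 8.45 and 8.67 in control, 7.45 and 7.20 with EGF and 9.26 and 9.60 with both agents. It fell at least 2.27-fold with EGF (−1.24 ± 0.21, adjusted p = 0.0123) and was at least 4.15-fold higher with gefitinib (2.11 ± 0.21, adjusted p = 0.00107). SYTL2, another RAB27 effector, fell with EGF at least 1.37-fold (−1.20 ± 0.20, adjusted p = 0.0111) and was 0.70 ± 0.20 higher with gefitinib (adjusted p = 0.049), where both groups were at background, and SYTL1 was called lower while at background (−1.31 ± 0.24). INPP5B, a phosphatase that binds RAB5, fell (−0.97 ± 0.20, adjusted p = 0.0229). APPL1, a RAB5 effector that meets EGFR on early endosomes, was higher with gefitinib than with EGF alone (0.95 ± 0.20, adjusted p = 0.0182), as was GCC2, a tether of the trans-Golgi (1.42 ± 0.21, adjusted p = 0.00472). RILP, the RAB7 effector that recruits dynein, was called lower while at background (−1.08 ± 0.20). REP15, an effector of RAB15, was at background on all arrays. Of the 5 measured genes listed here under prenylation and delivery 0 were called with EGF (limma, with 0 at an unadjusted p under 0.05). RABIF, at background with EGF plus gefitinib, fell at least 1.14-fold against EGF alone (fitted −0.96 ± 0.18, adjusted p = 0.0107). It was placed in that list for this report, so its call is not one of a prenylation enzyme.

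**Figure D4:**
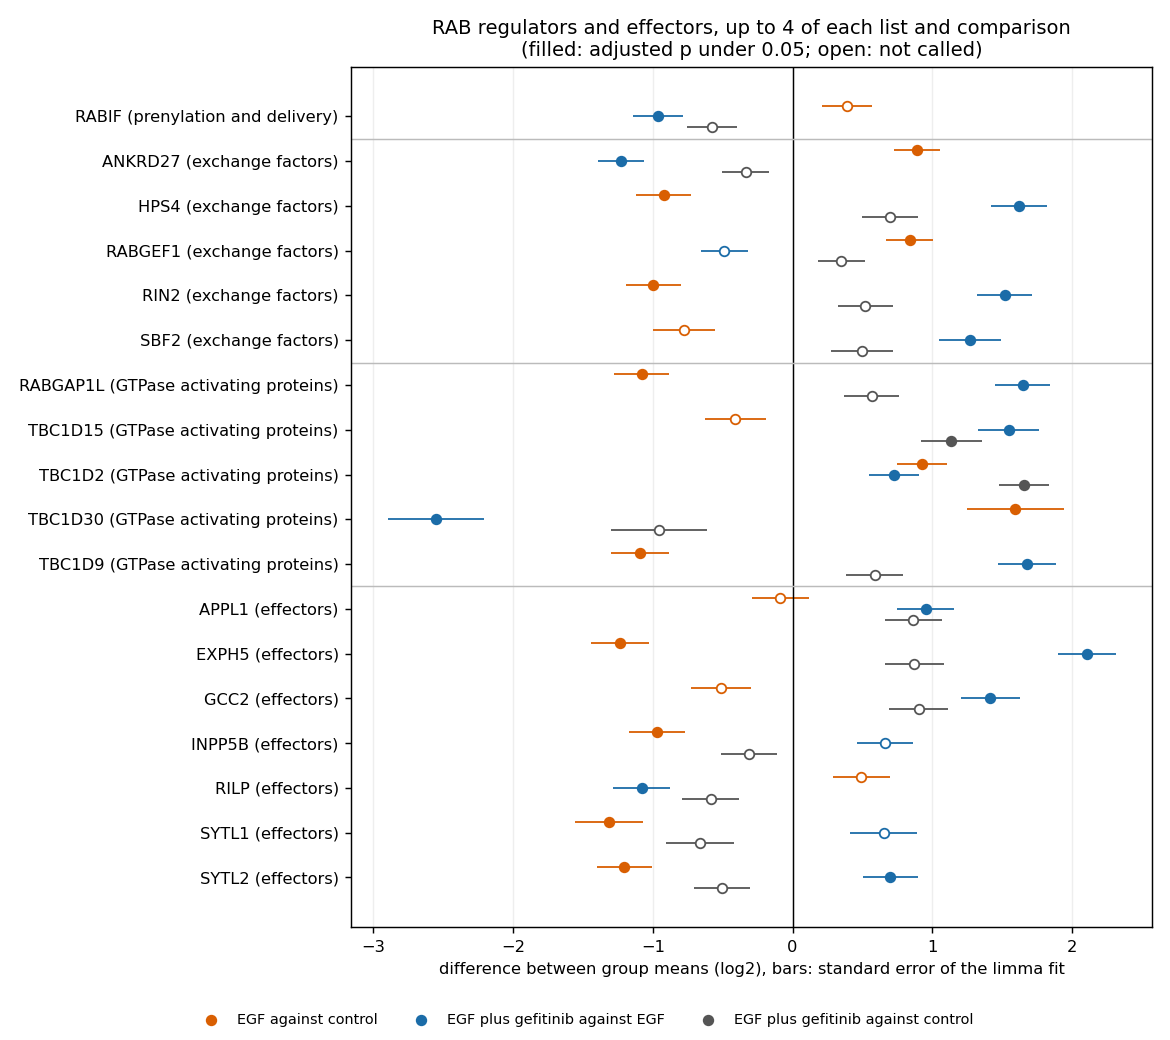
Log2 difference between group means (horizontal axis) of 18 RAB regulators and effectors, up to 4 called members of each list and comparison with the largest test statistic, with bars of 1 standard error and colours as for the RAB genes. RIN2, HPS4, RABGAP1L and EXPH5 lie below 0 with EGF and above 0 with gefitinib against EGF alone, and ANKRD27 the other way round.

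The other 42 RAB genes were called in none of the 3 comparisons, and 18 of them were at background on all arrays. The largest uncalled difference was that of RAB30, a Golgi RAB, at 1.23 ± 0.33 with EGF (adjusted p = 0.0556), from 5.28 and 5.34 to 7.07 and 6.02, at background on every array. RAB6C and RAB6D, near-identical copies of RAB6A, were at background on all arrays, while RAB6A was above the limit on all. The split of signal among them was not tested. RAB3D of secretory granules read 9.16 and 9.03 in control, 8.54 and 8.72 with EGF and 8.44 and 7.79 with both agents, lower at each step but not called (−0.98 ± 0.25 with both agents against control, adjusted p = 0.0754).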

How the data were processed

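RNA of 6 A431 samples, 2 each of control, EGF and EGF plus gefitinib, was labelled with biotin for whole-transcript arrays, per the labels' protocols. The deposited values are log2 signals. The submitters' processing notes name Transcriptome Analysis Console as the authors' tool; the version, background correction, normalization and genome build were not given in the sources used here. Any shift common to all transcripts may have been removed by that processing. The table held 24351 probe sets; 2903 controls were left out of the tests. GEO's platform annotation gave 1 symbol for 17709 probe sets and none for 3739. limma 3.58.1 in R 4.3.3 (lmFit, eBayes) fitted 1 mean per group over all 6 arrays to 21448 probe sets, two-sided, with Benjamini-Hochberg adjustment over all of them and calls at an adjusted p under 0.05. The fit was tested on simulated data. At background means at or below the 95th percentile of negative controls on both arrays of a group. An "at least" fold sets the bright group's mean against, per array of the dim group, the higher of its limit and its own value. Depth has no meaning for arrays; 2 per group limit the precision. Every called RAB gene, 14 listed traffic genes and up to 4 called members of each regulator list per comparison, by test statistic, were named. The 14 included RAB15, given as the marker of this gene set, and RAB4B, which was not analysed here. RAB3D, RAB7B, RAB14, RAB17 and RAB30 were chosen after their values were seen. The members and lists were chosen with earlier results of these data known, so the rank of RAB15 is not independent of its choice as marker. Alternatives were normalization, filter, prior, replicate block, a fold minimum, 4 arrays and leaving out each array.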

Additional observations from a re-analysis of the deposited data

How the results depend on the processing

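Counts of RAB genes are given as higher and lower in the order EGF against control, EGF plus gefitinib against EGF, and EGF plus gefitinib against control. For the alternative settings they stand without the counts over all probe sets, so they describe the settings only. The deposited values gave 2 and 7, 7 and 8, and 2 and 4. Restricting the fit to the 9003 probe sets above the negative-control limit on both arrays of a group gave 6 and 8, 7 and 14, and 4 and 11. A trended, robust prior gave 5 and 9, 9 and 15, and 5 and 12. A replicate block gave 1 and 6, 6 and 7, and 1 and 2, and fitting only the 4 arrays compared gave the same counts. Deviations of same-numbered arrays correlated at −0.04, 0.02 and 0.00 between groups, so no shift shared by same-numbered arrays was seen. This does not show whether same-numbered samples were handled together. A 2-fold minimum on the limma calls gave 0 and 3, 3 and 3, and 2 and 3, with 8 higher genes at an unadjusted p under 0.05 in the first comparison. Quantile normalization gave 2 and 7, 7 and 7, and 2 and 4, and median centring 3 and 6, 7 and 10, and 2 and 5. Leaving out each array in turn gave 0 to 1 and 1 to 6, 1 to 6 and 2 to 7, and 0 to 1 and 0 to 2 in limma, with at least 3 higher and 7 lower genes at an unadjusted p under 0.05 in each such fit. A group of 1 array is then assumed to vary like the others. No named RAB gene called in any of these fits changed direction. The cause of these shifts was not tested, beyond the fewer probe sets or arrays that a setting leaves. The calls of RAB38 and RAB40B with EGF, of RAB21 and RAB32 with gefitinib against EGF alone, and of RAB11A, RAB25 and RAB8B with both agents against control were lost in all 6 fits that leave out an array, and differences among the 20 genes at background could not be sized. Averaging probe sets per gene was not run, because each RAB gene had 1.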
